A study of Mus musculus with 8 samples.

Results

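The genes that bring proteins into mitochondria, cut off their targeting sequences and degrade them there were examined in the small intestine of 14-day-old mice given vehicle or arsenic. The members were all gene symbols of the count table that begin with Timm or Tomm followed by a digit, 25 in number, and 17 genes added by name, which made 42 of the 24411 symbols. All mice were of the hUGT1 transgenic line, which carries the human UGT1 gene cluster, and were 2 weeks old. The arsenic group had received inorganic arsenic at 10 mg/kg and the control group vehicle, with 24 h as the labelled time for both. RNA from 12 mice per group was pooled from 3 animals for each library, so that 4 vehicle pools were compared with 4 arsenic pools. A pool averages its 3 animals, so differences between single mice are not seen. The title of the series places the comparison in a study of enterocyte lipid, tissue growth and maturation during suckling.

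Nearly all mitochondrial proteins are made in the cytosol and must cross the outer membrane through the TOM complex. From there, proteins with a cleavable presequence pass through the TIM23 complex into the matrix, carrier proteins are inserted by the TIM22 complex, and small cysteine-rich proteins are trapped in the intermembrane space by oxidation. Presequences are removed in the matrix by the processing peptidase, and proteins that are damaged or in excess are degraded by proteases of the matrix and inner membrane. Enterocytes of the suckling gut absorb and repackage milk fat, work that draws on mitochondrial energy.

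Of the 42 members, 40 had enough counts to be tested. Tomm20l had no count in any library, and Timm8a2 had 5 counts in all, so neither was tested. The symbol Tomm6os, which the naming rule takes in, is an antisense RNA at the Tomm6 gene and codes for no import protein. The symbol Timm29 was not among those in the table, and that gene was not analysed here.

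Short DNA stretches at the start sites of 4 members are shown first, because their RNAs responded differently while their start sites carry matches to sites of factors known to act on nuclear genes for mitochondria. These 4 were chosen after their values were seen. Each sequence runs from 250 bases before to 50 bases after a RefSeq transcript start on GRCm38.p6 (mm10), written along the transcribed strand. Capitals mark matches on either strand to the ETS site CCGGAAG, which GABPA and other ETS factors bind, or to the site of the respiratory factor NRF1 (GCGCA and GCGC with 1 base of any kind between). RNA of the first 3, the receptor gene Tomm22, the channel gene Timm23 and the chaperone gene Timm8b, rose with arsenic, and that of the last, the protease gene Spg7, did not pass the test. The RefSeq start used for Spg7 lies 2566 bases from the start of the GENCODE gene, against 7 to 9 bases for the other 3.
Tomm22, chr15:79670618-79670917, plus strand: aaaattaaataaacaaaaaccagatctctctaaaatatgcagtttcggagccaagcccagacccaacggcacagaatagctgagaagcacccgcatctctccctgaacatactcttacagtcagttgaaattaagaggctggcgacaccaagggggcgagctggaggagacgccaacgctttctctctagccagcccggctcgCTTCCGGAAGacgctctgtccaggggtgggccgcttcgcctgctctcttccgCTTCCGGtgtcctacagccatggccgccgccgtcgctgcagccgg
Timm23, chr14:32201842-32202141, minus strand: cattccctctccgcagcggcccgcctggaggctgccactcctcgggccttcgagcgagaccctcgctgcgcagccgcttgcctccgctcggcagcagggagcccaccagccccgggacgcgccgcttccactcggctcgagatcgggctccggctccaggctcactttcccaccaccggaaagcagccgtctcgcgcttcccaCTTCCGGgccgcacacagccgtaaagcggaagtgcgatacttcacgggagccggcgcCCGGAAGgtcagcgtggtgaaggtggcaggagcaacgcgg
Timm8b, chr9:50603651-50603950, plus strand: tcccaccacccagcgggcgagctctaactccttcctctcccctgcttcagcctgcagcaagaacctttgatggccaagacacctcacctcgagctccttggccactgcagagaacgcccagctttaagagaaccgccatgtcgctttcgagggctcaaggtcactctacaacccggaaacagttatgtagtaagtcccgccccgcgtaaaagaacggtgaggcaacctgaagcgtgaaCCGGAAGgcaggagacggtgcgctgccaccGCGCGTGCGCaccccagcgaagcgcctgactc
Spg7, chr8:123065258-123065557, plus strand: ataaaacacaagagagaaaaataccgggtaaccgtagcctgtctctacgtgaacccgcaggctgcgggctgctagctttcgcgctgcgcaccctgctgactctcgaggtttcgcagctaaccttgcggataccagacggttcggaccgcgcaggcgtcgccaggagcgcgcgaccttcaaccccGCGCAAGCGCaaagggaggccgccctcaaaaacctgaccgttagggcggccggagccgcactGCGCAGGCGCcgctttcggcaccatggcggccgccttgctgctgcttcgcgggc

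In Tomm22 the ETS matches began at positions -47, -44 and 6 relative to the transcript start, the first 2 being overlapping matches on opposite strands. Timm23 had ETS matches at -47 and 11, Timm8b an ETS match at -12 and an NRF1 match at 19, and Spg7 NRF1 matches at -66 and -4. Start-site sequences were found for 37 of the 42 members and for 11521 of the tested genes of the whole table. The ETS site was present in 13 of the 37 (35.1%), against 16.2% of the tested genes. Of the 32 start sites of members that rose 11 held it, and so did that of Tomm34, which fell. Grpel2, which also fell, was among the members without a sequence, with Afg3l2, Timm21, Tomm40l and Tomm7. The NRF1 site was present in 6 (16.2%, against 9.32%), and 5 of these belonged to members that rose. The start sites of Tomm40 and Timm17a, which rose most of all members, held no ETS or NRF1 match. The E-box CACGTG, a site of MYC and USF factors, was in 7 (18.9%, against 9.70%). TGACGTCA, the full site of CREB and ATF factors, was in 1 (2.70%, against 3.09%). The same 1 was among 4 that held its first 6 letters, TGACGT (10.8%, against 11.1%). The core TGATGCAA of the composite C/EBP-ATF site was in none (against 0.625%). The YY1 site AAGATGGC was in 2 (5.41%, against 4.20%) and part of the ZNF143 site (ACTACA and TTCC with 1 base of any kind between) also in 2 (against 2.09%). The core TGACNNNGC of the antioxidant response element was in 3 (8.11%, against 14.5%) and the TATA box TATAAA also in 3 (against 7.90%). Both strands were searched for each, and TGACGT overlaps TGACGTCA by its construction. Median GC content of the stretches was 58.7% for members and 60.3% for tested genes. The 37 include the untested Timm8a2 and Tomm20l and the antisense Tomm6os. A match is only a run of letters, and neither binding nor its absence was measured.

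Import genes rose broadly with arsenic. Of the 40 tested members 36 rose, 2 fell and 2 did not pass. A call needed an adjusted p under 0.05 in the quasi-likelihood test of edgeR, with the Benjamini-Hochberg adjustment made over 15298 genes. Over all tested genes, 32.3% were called higher and 33% lower. The median log2 change of the members was 0.56, against -0.03 for all tested genes. Summed over the 42 members, levels in CPM (counts scaled to library size, with TMM factors) were 1916 ± 41.7 CPM with vehicle and 2801 ± 38.1 CPM with arsenic, 1.46-fold higher. Changes were moderate in size, 18 members rising at least 1.5-fold (9.14% of all genes did) and only Tomm40 and Timm17a at least 2-fold. None fell 1.5-fold. Against a 1.5-fold change itself (glmTreat), 13 members were higher and none lower, where 5.33% of all genes were higher and 5.32% lower. Pools of a group lay close together, with a median coefficient of variation over 39 protein-coding members of 5.02% in vehicle and 3.62% in arsenic. The 4 arsenic pools lay wholly above the vehicle pools for 37 members (30.1% of all genes) and wholly below for 2 (29.3%).

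**Figure D1:**
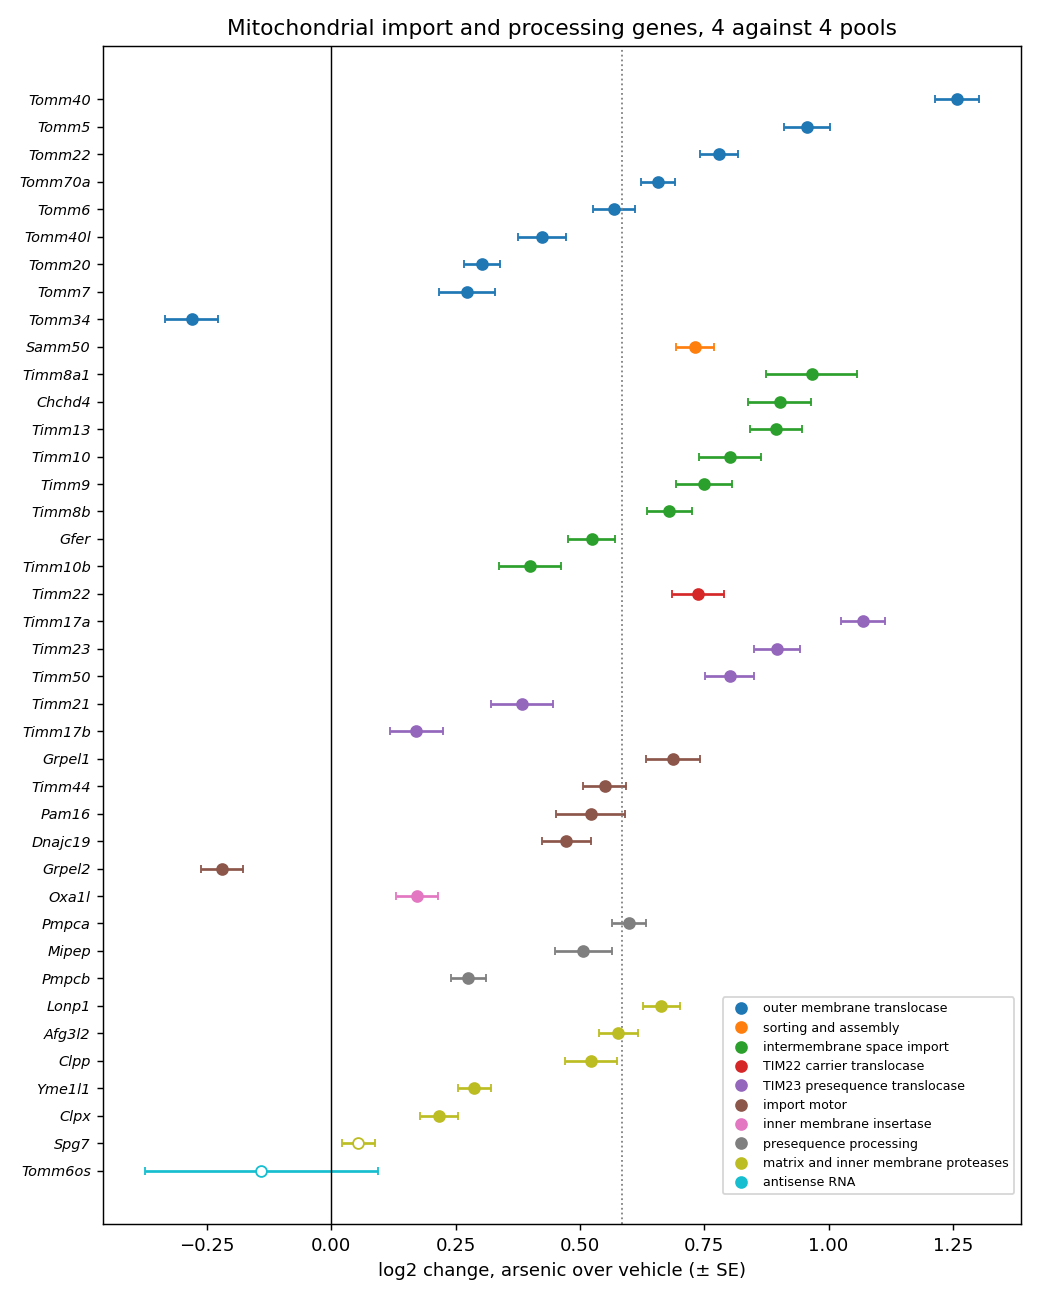
Each point is the log2 change of a tested gene, arsenic over vehicle, with its SE, coloured and grouped by role. Filled points passed an adjusted p of 0.05, open points did not, and the dotted line marks 1.5-fold. Tomm40 lies farthest to the right at 1.26, and Tomm34 and Grpel2 are filled points left of 0.

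Several cell-type markers moved beside these genes, and their part in the changes was not tested. Of 11 epithelial markers 5 were higher and 3 lower, with summed levels from 11242 to 12495 CPM with vehicle and from 13271 to 14862 CPM with arsenic. Abundant genes weigh most in this sum. Fabp2 (mean 2474 to 3988 CPM) and Krt8 (1498 to 2422 CPM) rose, while Epcam (1642 to 1254 CPM) and Alpi (2656 to 2113 CPM) fell. The median log2 change of the 11 was 0.09. Of 10 crypt and dividing-cell markers 7 were higher, such as Mki67, and the stem cell markers Lgr5, Olfm4 and Ascl2 were lower, with sums from 1186 to 1381 CPM with vehicle and from 1452 to 1560.5 CPM with arsenic. All 8 immune markers and all 4 endothelial markers were lower, with sums from 316 to 333 CPM with vehicle and from 199 to 227 CPM with arsenic for the former and from 341 to 375 CPM with vehicle and from 245 to 262 CPM with arsenic for the latter. All 6 smooth muscle markers were higher, with sums from 1826 to 2016 CPM with vehicle and from 2180.1 to 2655 CPM with arsenic. For fibroblasts 1 of 5 was lower (sums from 2561 to 2848 CPM with vehicle and from 2512 to 2877 CPM with arsenic). For enteric neurons and glia 1 of 5 was lower (sums from 27.7 to 31.8 CPM with vehicle and from 23.5 to 31.0 CPM with arsenic). That 1 was S100b, which fell from 6.47 ± 0.52 to 1.58 ± 0.51 CPM, and the other 4 did not pass. For pancreas and liver 1 of 5 was higher and 1 lower (sums from 858 to 1603 CPM with vehicle and from 654 to 1522 CPM with arsenic), and none of the defining markers of any list was at 0. Bulk RNA cannot tell fewer cells of a type from less RNA per cell. Pools also differed in sex-linked RNA. Vehicle replicate 4 had 11 counts over 4 Y-linked genes and 28844 of Xist, and arsenic replicate 3 had 5989 and 296. The other 6 pools had between 1195 and 3790 Y-linked counts and between 8696 and 25980 of Xist. Without those 2 pools the members again counted 36 higher and 2 lower. Total counts per pool ran from 18786779 to 29417666.

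The outer membrane translocase is the entry gate, with Tomm40 as the channel, Tomm20, Tomm22 and Tomm70a as receptors and Tomm5, Tomm6 and Tomm7 as small subunits. Of its 9 tested symbols 8 rose and 1 fell, and the summed level of the group was 556 ± 11.2 CPM with vehicle and 857 ± 15.9 CPM with arsenic. Tomm40 (chromosome 7, 19701313 to 19715438, minus strand) showed the largest change of all members, at 58.5, 58.6, 52.2 and 58.5 CPM in the vehicle pools and 142, 136, 139 and 129 CPM in the arsenic pools. Every arsenic pool was more than 2-fold above the highest vehicle pool (fold 2.39, log2 change 1.26, SE 0.04, adjusted p = 9.92e-12). The small subunit gene Tomm5 stood at 27.9, 26.6, 26.5 and 24.6 CPM in the vehicle pools and 51.3, 53.5, 50.7 and 49.7 CPM in the arsenic pools. It rose 1.94-fold, well clear of the vehicle range (adjusted p = 2.19e-10). The other small subunits moved less, Tomm6 at 1.48-fold and Tomm7 at 1.21-fold, both without overlap between groups. Among receptors, Tomm22, the central receptor that holds the complex together, stood at 67.1, 69.4, 64.8 and 66.7 CPM in the vehicle pools and 118, 116, 117 and 108 CPM in the arsenic pools. Its change was 1.72-fold (adjusted p = 2.64e-10). Tomm70a, the receptor for carrier proteins and their chaperones, stood at 150.1, 155, 152 and 151 CPM in the vehicle pools and 245, 239, 236 and 238 CPM in the arsenic pools. Its 1.58-fold rise was past the 1.5-fold line by its estimate but missed the test against that line (adjusted p = 0.0587 in glmTreat). Tomm20, the receptor for presequences, rose only 1.23-fold, from 96.0 ± 3.60 to 118 ± 1.62 CPM (SD, n = 4).

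Tomm34 fell, at 39.0, 39.6, 37.2 and 36.7 CPM in the vehicle pools and 30.9, 29.8, 34.7 and 30.1 CPM in the arsenic pools. All arsenic pools were below all vehicle pools (log2 change -0.28, SE 0.05, adjusted p = 3.02e-04). Despite its name, the Tomm34 protein is known as a cytosolic partner of HSP70 and HSP90 and not as a stable subunit of the channel. Tomm40l, the second channel-type gene, stood at 23.5, 23.6, 22.6 and 22.3 CPM in the vehicle pools and 29.6, 31.7, 32.0 and 30.5 CPM in the arsenic pools. Its change was 1.34-fold, and 64.3% of its annotated exonic length is shared with the nuclear receptor gene Nr1i3 on the other strand, so that reads of both cannot be told apart where strand was not used in counting. Tomm6 shares 19.4% of its exonic length with the antisense Tomm6os, which had only 257 counts in all and stood at 1.31, 1.49, 1.55 and 1.11 CPM in the vehicle pools and 1.57, 0.680, 1.13 and 1.56 CPM in the arsenic pools. The groups overlapped for Tomm6os (log2 change -0.14, SE 0.23, adjusted p = 0.618).

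Samm50, the core of the complex that inserts barrel-shaped proteins into the outer membrane, stood at 89.5, 95.5, 86.3 and 87.6 CPM in the vehicle pools and 146, 146, 149.6 and 154 CPM in the arsenic pools. It rose 1.66-fold (log2 change 0.73, SE 0.04, adjusted p = 5.31e-10), again without overlap.

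**Figure D2:**
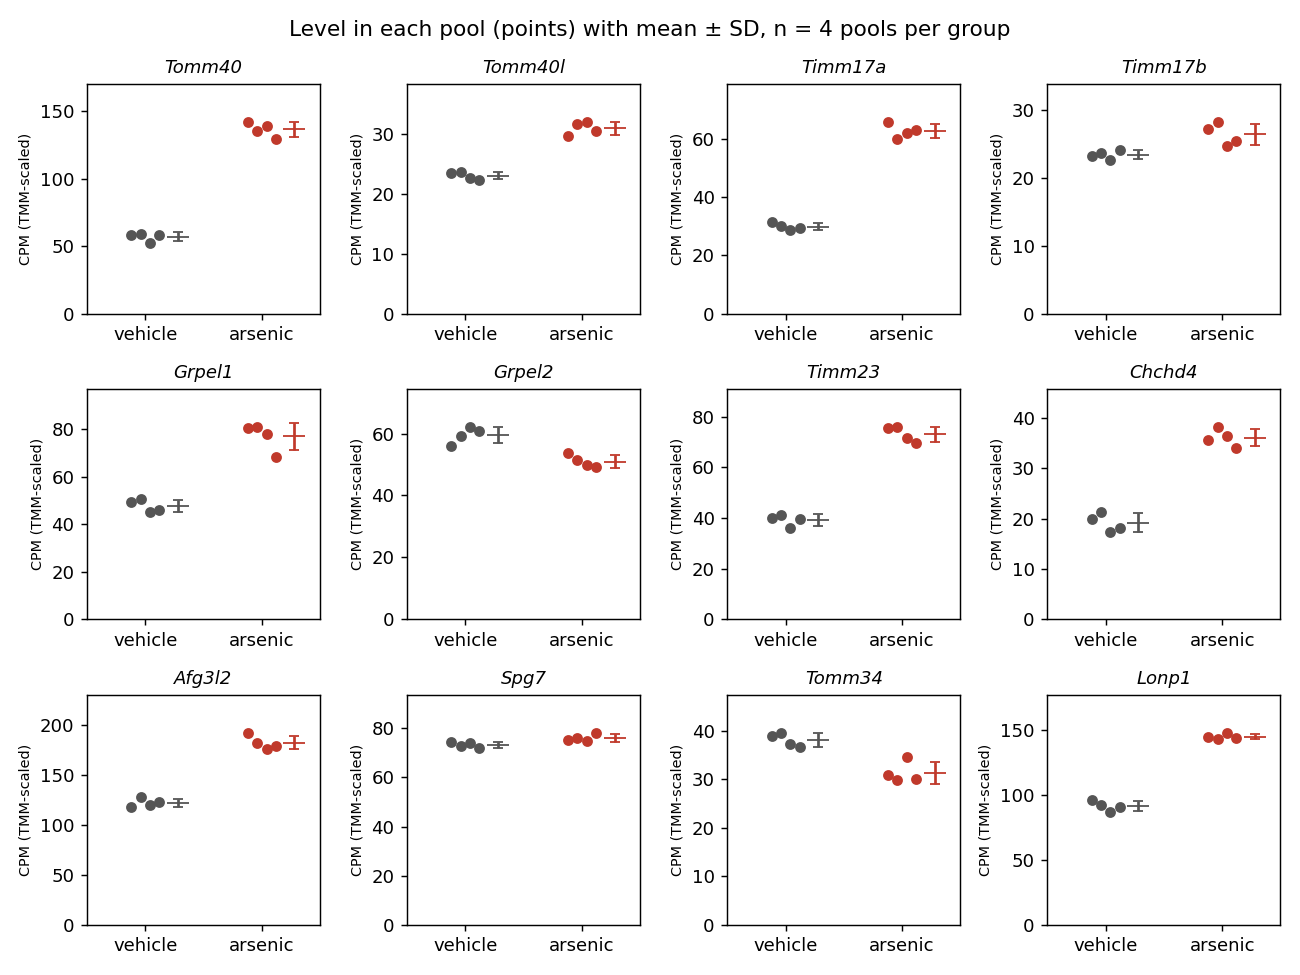
Points are the TMM-scaled CPM of single pools for 12 genes, with the mean ± SD of 4 pools beside them, and every vertical axis starts at 0. The arsenic points lie above the vehicle points for all genes shown except Grpel2 and Tomm34, where they lie below, and the shift of Spg7 is small, from 73.3 ± 1.15 to 76.1 ± 1.49 CPM.

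RNA of the genes for import into the intermembrane space rose as a group. All 8 tested genes of oxidative trapping and of the small TIM chaperones rose, 6 of them at least 1.5-fold, and their summed level was 167 ± 7.80 CPM with vehicle and 276 ± 6.16 CPM with arsenic. Chchd4, the oxidoreductase that traps incoming proteins by forming disulfides, stood at 19.98, 21.4, 17.3 and 18.2 CPM in the vehicle pools and 35.7, 38.2, 36.4 and 34.1 CPM in the arsenic pools. Its rise was 1.87-fold (log2 change 0.90, SE 0.06, adjusted p = 1.05e-08). Gfer, the sulfhydryl oxidase that re-oxidizes the CHCHD4 protein, stood at 27.2, 25.2, 24.2 and 26.5 CPM in the vehicle pools and 37.0, 36.3, 37.9 and 37.3 CPM in the arsenic pools. The rise of Gfer was smaller, at 1.44-fold.

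The small TIM proteins escort hydrophobic cargo across the intermembrane space in rings, TIMM9 with TIMM10 and TIMM8 with TIMM13. Timm9 stood at 20.2, 17.4, 18.5 and 18.7 CPM in the vehicle pools and 32.9, 29.7, 31.1 and 32.2 CPM in the arsenic pools. Timm10 stood at 11.0, 11.6, 11.1 and 9.99 CPM in the vehicle pools and 19.3, 19.8, 18.4 and 18.9 CPM in the arsenic pools. These partners rose 1.68-fold and 1.74-fold. Timm13 stood at 34.3, 39.3, 32.6 and 36.7 CPM in the vehicle pools and 69.8, 65.2, 65.6 and 65.3 CPM in the arsenic pools. Timm8a1, the X-linked gene whose human counterpart is mutated in a deafness-dystonia syndrome, stood at 4.81, 4.97, 4.80 and 4.49 CPM in the vehicle pools and 9.97, 9.47, 9.69 and 8.08 CPM in the arsenic pools. These partners of the other ring rose 1.86-fold and 1.95-fold, and Timm8a1 had the widest SE of the protein-coding members (0.09). Timm8b, its close relative, stood at 31.2, 32.5, 29.5 and 31.2 CPM in the vehicle pools and 51.8, 50.9, 49.2 and 47.6 CPM in the arsenic pools. It rose 1.60-fold, and its adjusted p against a 1.5-fold change was 0.0594. Timm10b, which docks small TIM rings on the TIM22 complex, rose least of these genes, 1.32-fold from 20.4 ± 1.71 to 27.0 ± 1.19 CPM. Timm22, the insertase for carrier proteins, stood at 15.6, 17.7, 16.7 and 16.7 CPM in the vehicle pools and 27.6, 27.2, 27.9 and 28.5 CPM in the arsenic pools. It rose 1.67-fold, with narrow groups that were wholly apart.

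RNA of all 5 tested subunits of the TIM23 complex, the inner membrane gate for presequence proteins, rose. Their summed levels were 144 ± 6.52 CPM with vehicle and 245 ± 4.32 CPM with arsenic. The channel gene Timm23 (chromosome 14, 32180162 to 32201898, minus strand) stood at 40.1, 41.0, 36.0 and 39.7 CPM in the vehicle pools and 75.4, 75.8, 71.6 and 69.6 CPM in the arsenic pools. Its rise was 1.86-fold (log2 change 0.90, SE 0.05, adjusted p = 3.94e-10). Timm17a (chromosome 1, 135295213 to 135313778, minus strand), a channel-lining partner, stood at 31.4, 29.9, 28.6 and 29.4 CPM in the vehicle pools and 65.8, 60.0, 62.1 and 63.0 CPM in the arsenic pools. It had the second-largest change of all members, 2.10-fold (adjusted p = 3.99e-11). Timm17b, the X-linked paralog of Timm17a, stood at 23.3, 23.7, 22.7 and 24.2 CPM in the vehicle pools and 27.2, 28.3, 24.8 and 25.5 CPM in the arsenic pools. The shift of Timm17b was among the smallest that passed, 1.13-fold (adjusted p = 0.0113), with the lowest arsenic pool just above the highest vehicle pool. Timm50, the receptor that hands presequences to the channel, stood at 36.4, 36.6, 31.1 and 33.6 CPM in the vehicle pools and 60.5, 61.2, 59.6 and 59.5 CPM in the arsenic pools. It rose 1.74-fold. Timm21, which links the outer and inner gates, rose 1.31-fold. In human cells the TIMM17A protein is known to be degraded by the protease YME1L under stress, and only RNA was measured here.

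The import motor pulls proteins into the matrix by cycles of mitochondrial HSP70. Of its 5 genes 4 rose and 1 fell, and the summed level was 205 ± 5.47 CPM with vehicle and 269 ± 7.95 CPM with arsenic. Grpel1, the main nucleotide exchange factor, stood at 49.3, 50.5, 45.1 and 46.1 CPM in the vehicle pools and 80.6, 80.8, 78.2 and 68.5 CPM in the arsenic pools. It rose 1.61-fold, with arsenic replicate 4 below the other arsenic pools but above all vehicle pools. Grpel2, its paralog, stood at 56.0, 59.2, 62.0 and 60.7 CPM in the vehicle pools and 53.7, 51.4, 49.7 and 49.1 CPM in the arsenic pools. All 4 arsenic pools were below the vehicle pools (log2 change -0.22, SE 0.04, adjusted p = 3.76e-04), so the exchange factor genes moved in opposite directions. Timm44, the scaffold that holds HSP70 at the channel, rose 1.46-fold, the J-type regulator Dnajc19 1.39-fold and its partner Pam16 1.44-fold, all without overlap between groups. Pam16 shares 18.7% of its exonic length with Glis2, and Grpel1 11.6% with Tada2b, on the other strand in both cases. Oxa1l, which inserts proteins from the matrix side into the inner membrane, moved little, from 69.4 ± 3.47 to 78.3 ± 2.83 CPM (1.13-fold, adjusted p = 0.00233).

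Presequence processing genes rose in all 3 cases. Pmpca, the substrate-binding subunit of the processing peptidase, stood at 84.4, 83.8, 84.7 and 82.3 CPM in the vehicle pools and 132, 126, 126 and 123 CPM in the arsenic pools. Pmpcb, the catalytic subunit, stood at 69.2, 72.9, 72.2 and 74.1 CPM in the vehicle pools and 86.8, 88.2, 84.9 and 89.3 CPM in the arsenic pools. The former rose 1.51-fold and the latter 1.21-fold, both wholly apart from vehicle. Pmpca shares 20.4% of its exonic length with Inpp5e on the other strand. Mipep, which trims a further short peptide from some imported proteins, rose 1.42-fold.

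Among the 6 protease genes 5 rose and none fell, with summed levels of 494 ± 8.08 CPM with vehicle and 659 ± 11.1 CPM with arsenic. Lonp1, the matrix protease for oxidized and misfolded proteins, stood at 96.0, 92.1, 86.3 and 90.3 CPM in the vehicle pools and 145, 143, 147 and 143 CPM in the arsenic pools. It rose 1.58-fold (log2 change 0.66, SE 0.04, adjusted p = 1.03e-09) and was the only protease gene whose rise reached 1.5-fold. The Clpp and Clpx genes code for the peptidase and the unfoldase of the second matrix protease. Clpp stood at 27.2, 28.1, 28.3 and 24.6 CPM in the vehicle pools and 40.5, 39.2, 38.7 and 36.9 CPM in the arsenic pools. Clpx stood at 48.9, 52.4, 49.6 and 48.1 CPM in the vehicle pools and 57.8, 56.7, 58.7 and 57.9 CPM in the arsenic pools. The peptidase gene rose 1.44-fold and the unfoldase gene 1.16-fold. Afg3l2 and Spg7 code for subunits of the m-AAA protease, whose active sites face the matrix. Afg3l2 stood at 118, 127, 119.9 and 123 CPM in the vehicle pools and 192, 181, 176 and 179 CPM in the arsenic pools. Spg7, the paraplegin gene, stood at 74.2, 72.8, 74.2 and 71.9 CPM in the vehicle pools and 75.2, 76.2, 74.8 and 78.1 CPM in the arsenic pools. Afg3l2 rose 1.49-fold (adjusted p = 6.97e-09), whereas Spg7 missed the threshold although its arsenic pools lay just above its vehicle pools (log2 change 0.05, SE 0.03, adjusted p = 0.167). Yme1l1, the i-AAA protease facing the intermembrane space, stood at 132, 132, 129 and 130.4 CPM in the vehicle pools and 166, 155, 160.3 and 158 CPM in the arsenic pools. It rose 1.22-fold.

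Whether partners and paralogs changed by different amounts was tested directly, on the log2 ratio of both genes in each pool (exact permutation test, two-sided, 70 splits of 4 against 4, smallest possible p = 0.0286, adjusted over 12 pairs). In 9 of 12 pairs the ratio differed, each with all 4 arsenic pools on 1 side of the 4 vehicle pools. The share of other gene pairs that would separate in this way was not counted. Over all tested genes 65.3% were called, so the count of 9 is not read as particular to partners or paralogs. Each of the 9 stood at the smallest possible p, with an adjusted p of 0.0381 that does not rank them by size. That adjusted value also depends on how many of the chosen pairs reached the smallest p. The pairs were chosen with earlier results of these data known. The 3 largest shifts were between paralogs, but so was the smallest of the 9, Timm8a1 against Timm8b. The Grpel1 to Grpel2 log2 ratio went from -0.32 ± 0.13 with vehicle to 0.59 ± 0.08 with arsenic. This shift of 0.91 turned the order of their counts, which are not scaled by gene length. The Timm17a to Timm17b ratio went from 0.34 ± 0.06 with vehicle to 1.24 ± 0.11 with arsenic. The Tomm40 to Tomm40l ratio went from 1.30 ± 0.08 with vehicle to 2.14 ± 0.08 with arsenic, with the overlap of Tomm40l with Nr1i3 named above. In these 3 pairs the member with the larger rise was the one named first, and the shifts were between 0.84 and 0.91. The other shifts were smaller. The Afg3l2 to Spg7 ratio changed by 0.52, the Pmpca to Pmpcb ratio by 0.32, the Clpp to Clpx ratio by 0.30 and the Chchd4 to Gfer ratio by 0.38. The inner membrane proteases Afg3l2 and Yme1l1 shifted by 0.29, and Timm8a1 against Timm8b by 0.27. The calls for Timm8a1 to Timm8b and for Chchd4 to Gfer were lost when some single pools were left out (exact permutation test, adjusted p from 0.0686 to 0.0762). The other pairs that differed kept theirs.

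No difference passed the test for the ring partners. The Timm9 to Timm10 log2 ratio went from 0.77 ± 0.14 with vehicle to 0.72 ± 0.09 with arsenic (exact permutation p = 0.629, adjusted p = 0.629). The Timm8a1 to Timm13 ratio went from -2.88 ± 0.12 with vehicle to -2.83 ± 0.12 with arsenic (exact permutation p = 0.600, adjusted p = 0.629). Their pools overlapped, which does not show that the partners changed alike. The channel genes of the inner membrane, Timm22 against Timm23, shifted by -0.16 and did not pass (exact permutation p = 0.0857, adjusted p = 0.103).

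**Figure D3:**
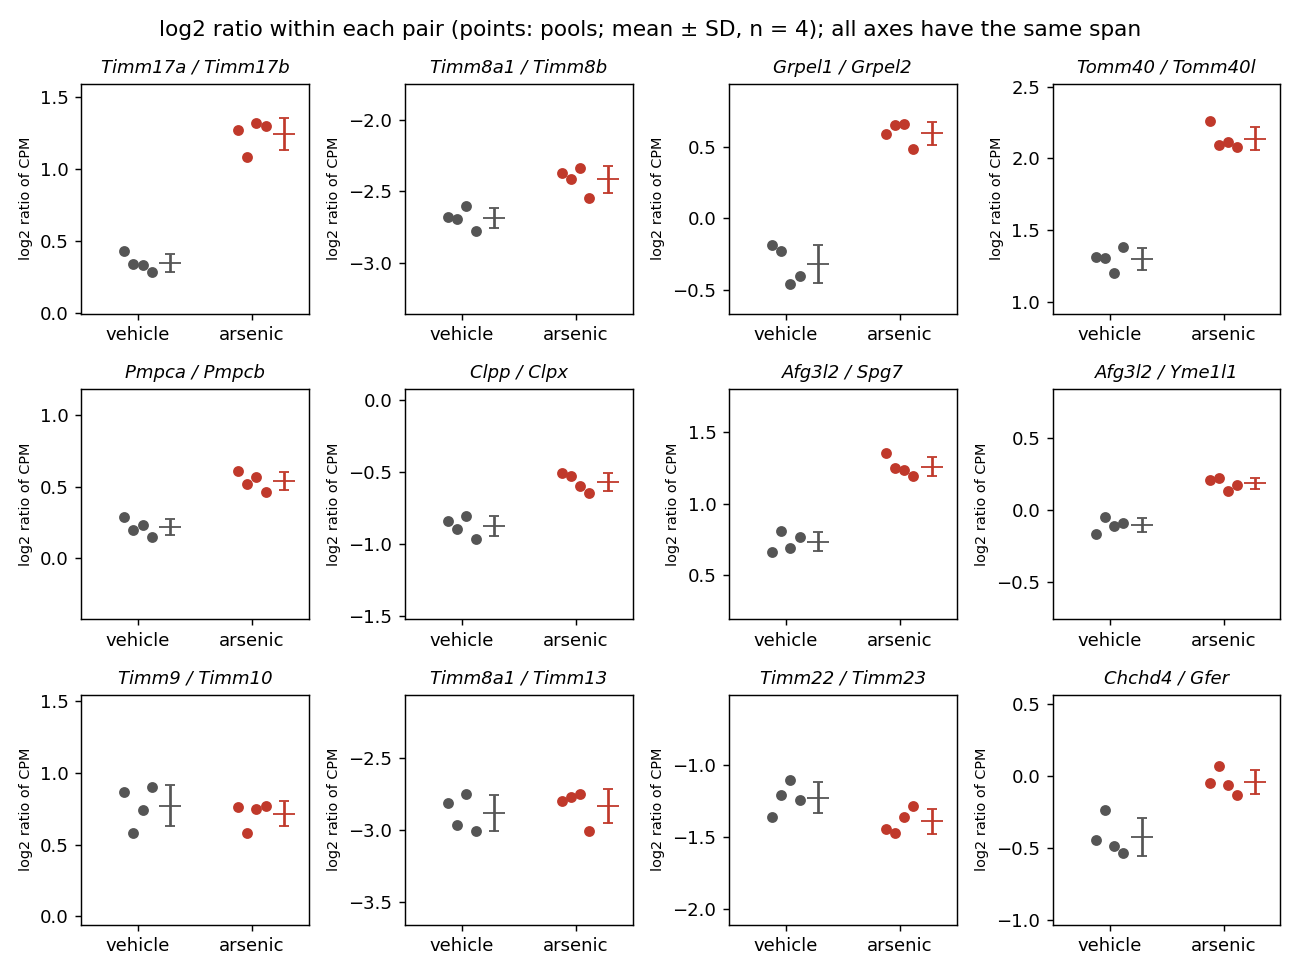
Each panel shows the log2 ratio of the CPM of 2 genes in each pool, with mean ± SD of 4 pools per group, on axes of equal span. The groups are apart in 9 panels and overlap for Timm9 to Timm10, Timm8a1 to Timm13 and Timm22 to Timm23.

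Levels of different genes were compared per kb of annotated exonic length (all exons of a gene merged, so that genes with long alternative ends come out lower). On this scale Timm8b was the most abundant member in vehicle, at 60.0 ± 2.40 CPM per kb (SD, n = 4), followed by Tomm6 at 55.0 ± 3.52 and Tomm22 at 40.6 ± 1.14 CPM per kb. The small subunit genes Tomm7 at 30.5 ± 2.52 and Tomm5 at 30.4 ± 1.55 CPM per kb came next and did not differ beyond their spread in vehicle. Most of the Tomm6 exons (76.0%) also belong to the annotated gene Gm21981 on the same strand, a symbol not found in the table. The channel gene Tomm40 stood at 12.6 ± 0.701 CPM per kb in vehicle and 30.2 ± 1.18 in arsenic. Timm17a stood below Timm17b in vehicle on this scale, at 3.78 ± 0.153 against 9.18 ± 0.250 CPM per kb, and at 7.94 ± 0.304 against 10.3 ± 0.616 in arsenic. Grpel1 stood above Grpel2 in both groups, at 13.5 ± 0.734 against 8.80 ± 0.382 CPM per kb in vehicle. In arsenic these levels were 21.8 ± 1.64 and 7.54 ± 0.306 CPM per kb, so their order did not turn on this scale. Mipep at 3.18 ± 0.160 and Timm8a1 at 3.35 ± 0.142 CPM per kb were the least abundant protein-coding members that were tested.

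**Figure D4:**
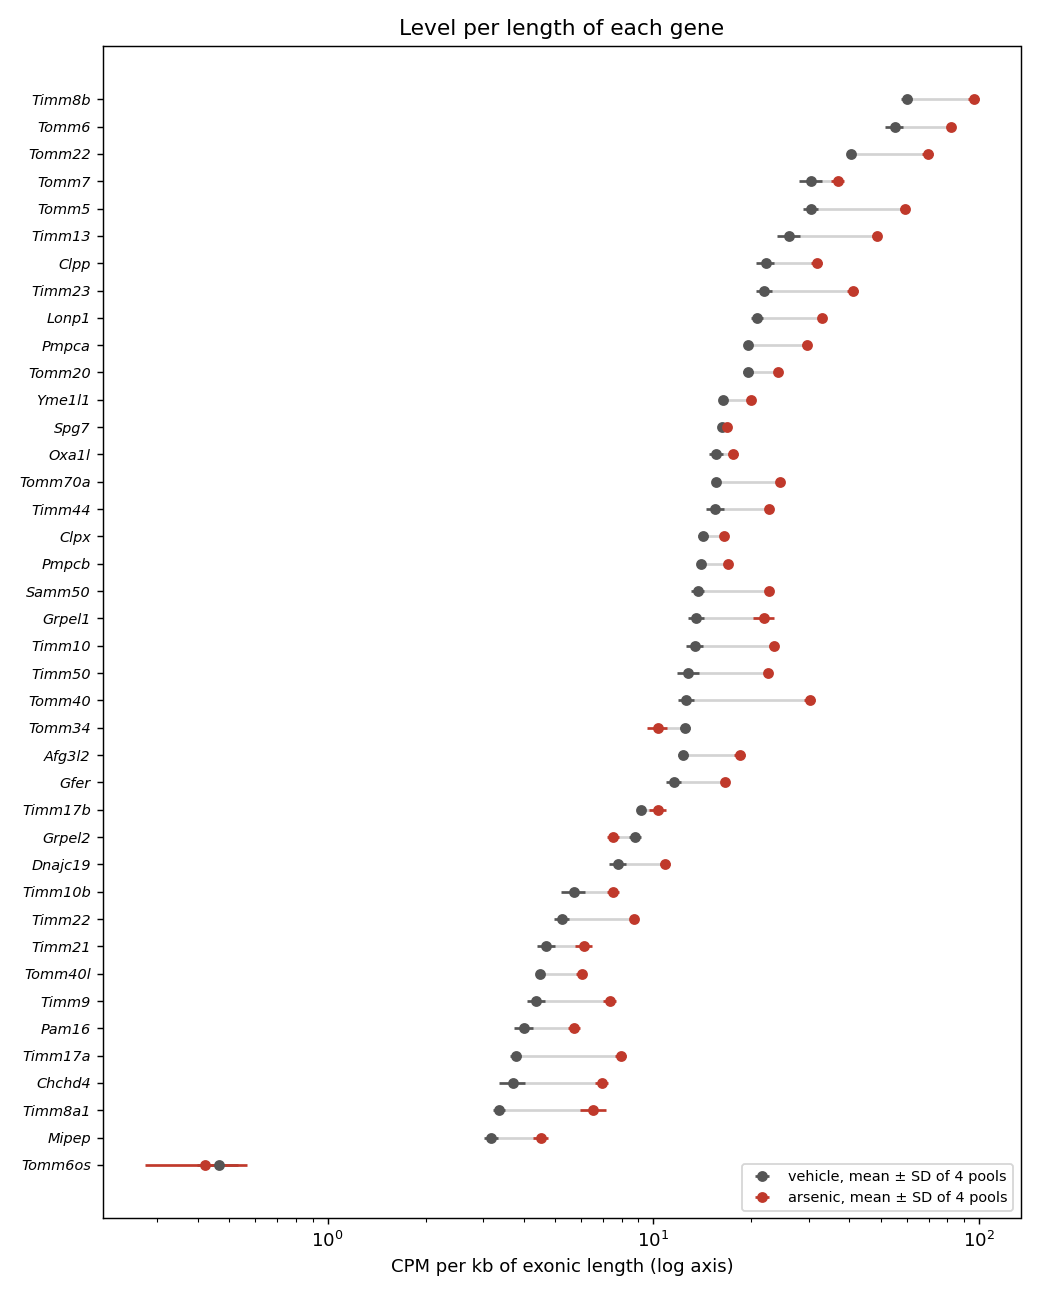
Grey and red points are the mean level of each gene in vehicle and arsenic, in CPM per kb of exonic length on a log axis, with the SD of 4 pools. Genes are ordered by their vehicle level, from Timm8b at the top to Tomm6os at the bottom, and red lies right of grey except for Tomm34, Grpel2 and Tomm6os.

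Other genes of import and mitochondrial protein quality control, listed from textbook knowledge, moved the same way in most cases, 30 of 35 higher and 3 lower, with a median log2 change of 0.55. All 7 matrix chaperone genes rose. The chaperonin genes Hspd1 and Hspe1 rose 2.57-fold and 2.07-fold, and Hspa9, the HSP70 of the import motor, went from 340.1 ± 11.8 to 639.9 ± 9.47 CPM (1.88-fold). Of 6 outer membrane and SAM partner genes 4 rose, among them Dnajc11 (log2 0.76), Mtx2 (0.63) and Mtch2 (0.50). Mtx3 and Mtch1 fell, with log2 changes of -0.34 and -0.13. Of 9 peptidases and protease partners 8 rose, among them the prohibitin genes Phb (log2 0.86) and Phb2 (0.76) and Stoml2 (0.72). Immp2l, a peptidase of the inner membrane, fell (log2 -0.42). Of 5 genes for insertion and assembly 4 rose and none fell, among them Cox18 (log2 0.63), Timmdc1 (0.49) and Aifm1 (0.42), which anchors CHCHD4. Of 8 genes of the cristae-organizing MICOS list 7 rose and none fell, and those with the smallest p were Chchd10 (log2 0.96), Chchd3 (0.65) and Immt (0.50).

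Regulators of nuclear genes for mitochondria were higher in 9 of 13 cases and lower in 1. Atf5, a factor tied to the mitochondrial unfolded protein response, rose 1.75-fold from 78.9 ± 2.90 to 138 ± 9.98 CPM. The coactivator genes Pprc1 and Ppargc1a each rose 1.47-fold, Atf4 rose 1.23-fold, and Ddit3, which codes for CHOP, fell (log2 -0.50). Of the listed genes named with a searched site above, Nrf1 and Gabpa had log2 changes of 0.15 (adjusted p = 0.0120) and 0.18 (adjusted p = 3.79e-04). Myc and Yy1 did not pass, with log2 changes of 0.13 (adjusted p = 0.105) and -0.01 (adjusted p = 0.804).

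Other genes for mitochondria rose too, though not evenly over the sets. Over all tested genes 32.3% were called higher, 33% lower, and 9.14% higher by at least 1.5-fold. All 8 genes taken as marks of mitochondrial content rose, with summed levels of 3464 ± 118 CPM with vehicle and 4951 ± 147 CPM with arsenic (1.43-fold). Their rises ran from 1.15-fold for Cox4i1 to 1.80-fold for the citrate synthase gene Cs. Of 77 mitochondrial ribosomal protein genes 75 rose and 1 fell (median log2 0.54, summed levels 1.49-fold). Of 80 tested nuclear-coded respiratory chain genes 69 rose, 9 of them at least 1.5-fold, and 3 fell (median 0.38, summed levels 1.34-fold). Of 40 tested SLC25 carrier genes 21 rose and 11 fell (median 0.17), with 5 in each direction by at least 1.5-fold. The sets were described side by side and their differences from the import genes were not tested.

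**Figure D5:**
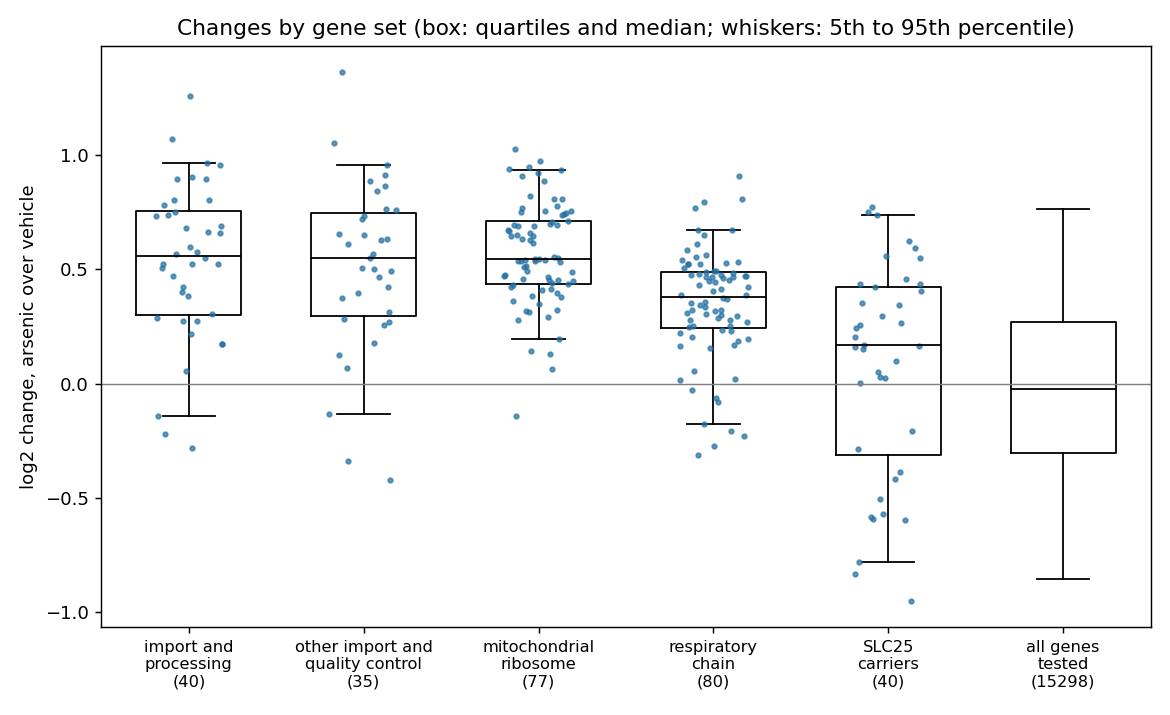
Points are log2 changes of single genes, arsenic over vehicle, in 5 sets of genes for mitochondria, and boxes give median and quartiles, also for all 15298 tested genes. The medians of the import set (0.56), the other import and quality control genes (0.55) and the mitochondrial ribosome set (0.54) lie above those of the respiratory chain (0.38) and of all genes (-0.03).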

How the data were processed

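Counts came from intestinal RNA of 4 vehicle and 4 arsenic pools, with TRIzol extraction and a stranded Illumina mRNA kit per the labels' protocols. The submitters' processing notes name mm10, STAR (2.7.9a), bcl2fastq (2.20) and, for DESeq2, version 1.34.0. The sources used here do not say how reads were assigned to genes or whether strand was used. The authors deposited raw counts per gene symbol, which were the input of every test. The authors' deposited comparison, with a log2 fold change, a p-value and its adjusted form per gene, served only as a check: it calls 36 members higher and 2 lower, with log2 changes within 0.0133 of those given. Their normalized and regularized log values were not used.

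Genes passing edgeR's filterByExpr (minimum count 10, minimum total 15) were scaled by TMM and tested by quasi-likelihood (edgeR 4.0.16, R 4.3.3, two-sided) with group as only term. Adjusted p-values follow Benjamini and Hochberg across the 15298 genes, with 0.05 as threshold, and glmTreat tested against 1.5-fold. SE is the size of the log2 change divided by the root of F. Replicate numbers are names and pair nothing. P-values set the difference between groups against the spread between pools. Log2 ratios used a prior count of 2. The edgeR test was checked on simulated counts in which only a small part of the genes changed, unlike the 65.3% called here. The permutation test was checked only on a made-up series with a known shift. Totals of 18786779 to 29417666 counts per pool gave log2 standard errors of 0.0331 to 0.0908 for protein-coding members. Positions, exonic lengths and overlaps came from GENCODE M21 (mm10). Start-site sequences came from RefSeq (GRCm38.p6), matched by symbol, taking the start nearest to that of the GENCODE gene.

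Values in every pool are given for members called with at least 1.5-fold change, for those that fell or missed the threshold, and for pairs that differed. The members, lists, pairs and motifs were chosen with earlier results of these data known. Alternatives were DESeq2 (1.42.0), limma-voom (limma 3.58.1), other scalings and filters, a robust fit and leaving out pools.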

Additional observations from a re-analysis of the deposited data

Results flagged for a closer look

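Within groups of 4 pools, 2 of 80 tested sets of member values had a pool far from the other 3, by Dixon's ratio at its 95% limit, a rate below the 1 in 20 that chance gives. Arsenic replicate 1 was high for Timm13, at 69.8 CPM beside a next value of 65.6 CPM. Vehicle replicate 3 was low for Tomm40, at 52.2 CPM beside a next value of 58.5 CPM. Both genes kept their calls without these pools.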

How the results depend on the processing

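No paired analysis was possible because the labels give the pools no shared replicate numbers. The counts of 36 members higher and 2 lower were the same with DESeq2 size factors, upper-quartile scaling, library totals only, no filter, a 1 CPM filter, DESeq2, limma-voom, a robust fit, each pool left out, and without vehicle replicate 4 and arsenic replicate 3 together, and Tomm34 and Grpel2 were the ones lower each time. The median log2 change of the members ranged from 0.53 (upper-quartile scaling) to 0.60 (without vehicle replicate 2), and that of all genes from -0.05 to -0.01. Spg7 passed under none of them, with log2 changes of 0.03 to 0.07 and adjusted p from 0.0959 to 0.495. Tomm6os turned sign without arsenic replicate 2 (log2 0.045, from -0.14; range with single pools left out -0.29 to 0.045), and missed the threshold throughout; the cause was not tested. With single pools left out, the Timm8a1 to Timm8b shift ranged from 0.24 to 0.31 and lost its call without any 1 of the vehicle pools. The Chchd4 to Gfer shift ranged from 0.35 to 0.45 and lost its call without any 1 of the arsenic pools. Leaving out a pool leaves fewer splits, of unequal groups, but the smallest possible p stays the same. With all pools kept, the arsenic ratios of both pairs lay wholly above the vehicle ratios. Why these calls were lost was not tested. The other pairs kept their side of the threshold, also with pseudocounts of 0.5 and 5 counts. Ratios of summed levels stayed within the spread between pools; a pseudocount does not enter them. Low counts limit Timm8a2, Tomm20l and Tomm6os.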
